A study of Mus musculus with 16 samples.

Results

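Nkx2-2, Nkx2-3, Nkx2-5, Nkx2-9, Nkx6-1 and Nkx6-2 are homeobox genes of the NK class, and these 6 genes were taken by name from the 24982 genes of the count table. All 6 were found in the count table and in the TPM table, and all 6 had a count in at least 1 tumor. The genes were chosen with the difference between intra-CNS tumors and the others known. Their values in that contrast are therefore given as a description, without a test.

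The tumors were 16 primary rhabdoid tumors (RT), each from a different Smarcb1 flox/flox;R26-CreERT2 mouse. Smarcb1 encodes a core subunit of the SWI/SNF chromatin remodeling complex, and all 16 mice carried the same floxed alleles and the same Cre. The Cre is driven from the ubiquitous Rosa26 locus and is activated by tamoxifen given to the pregnant mother, so that recombination was not restricted to a cell type and no unrecombined control tumor was analysed. In the 5 intra-CNS tumors, tamoxifen was given at E6 and the mice were 30 to 180 days old at collection. The 6 intracranial extra-CNS tumors lay inside the skull but outside the brain, with tamoxifen at E6 (1 tumor), E7 (1 tumor) or E8 (4 tumors) and an age of 52 to 170 days. The 5 extracranial tumors arose in the back, jaw (2 tumors), nose and mouth, with tamoxifen at E6 (1 tumor) or E8 (4 tumors) and an age of 80 to 210 days. The study assigns the intra-CNS tumors to its Shh subgroup and all others to its Myc subgroup, so that location and subgroup cannot be told apart here. Every intra-CNS tumor was induced at E6, against 2 of the 11 tumors outside the CNS, so that time of induction was the same only within this small subset.

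Total counts ranged from 17889968 to 110177889 per tumor. The floxed gene, Smarcb1, had 3.99 to 9.91 TPM in 4 intra-CNS tumors and 58.1 TPM in the fifth, 29048, against 6.48 to 43.7 TPM in the tumors outside the CNS. A count per gene does not separate the deleted part of Smarcb1 from the rest, nor tumor cells from other cells. Tumor 29048 stood apart in a further measure, with a summed level of 9 oligodendrocyte markers of 7289 TPM against 54.0 to 190 TPM in the other 4 intra-CNS tumors. The same tumor had the highest summed neuron markers (4390 TPM) and astrocyte markers (2057 TPM) of the intra-CNS tumors. Summed neural progenitor markers ranged from 1770 to 3694 TPM in the intra-CNS tumors and reached at most 278 TPM outside the CNS.

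NK homeobox genes encode transcription factors that bind DNA through a homeodomain, a fold of helices whose recognition helix lies in the major groove. In the neural tube, Sonic hedgehog from the notochord and floor plate induces Nkx2-2, Nkx2-9, Nkx6-1 and Nkx6-2 in ventral progenitors (the class II factors), where they repress dorsal programs through Groucho co-repressors and set the domains that give motor neurons, V3 interneurons and, later, oligodendrocytes. Nkx2-3 and Nkx2-5 are better known outside the nervous system, Nkx2-3 in the mesenchyme of the gut and spleen and in the pharynx, and Nkx2-5 in the heart.

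The coding sequences of this helix are shown for 5 members because near-identical stretches could let reads be shared between genes. The 27 bases printed start at the conserved codons that open the DNA-contacting part of the helix. They come from GENCODE transcripts (release M21, GRCm38), and capitals mark bases that differ from Nkx2-2.
Nkx2-2: tggttccagaaccatcgctacaagatg
Nkx2-5: tggttccagaaccGtcgctacaagTGC
Nkx2-3: tggttccagaaTcGCAgGtacaagTGC
Nkx6-1: tggttccagaaccGCAgGACcaagTGg
Nkx6-2: tggttccagaaTcGGcgGACcaagTGg
Nkx2-5 differed from Nkx2-2 at 4 of the 27 bases and Nkx2-3 at 8. Nkx6-1 and Nkx6-2 each differed from Nkx2-2 at 8 bases and from each other at 3, and Nkx2-3 differed from Nkx6-1 at 4. Over the whole transcripts of 10 NK genes, the longest exact stretch shared by any 2 genes was 42 bases, between Nkx2-9 and Nkx2-1. The libraries were read from both ends of each fragment, in reads that the study gives as longer than this stretch. How reads with several matches were counted is not given in the sources used here.

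Of the ventral neural tube genes, Nkx2-2 was present in all 5 intra-CNS tumors and near the detection limit elsewhere. Nkx2-2 lies on chromosome 2 (GRCm38, chr2:147177546-147194243, minus strand) and specifies V3 interneuron progenitors and, later, oligodendrocyte differentiation. Its level was 9.02 TPM in tumor 29048, 7.11 in R26P98, 2.5 in 38594A, 0.678 in R26P87 and 0.574 in 29050A. Outside the CNS, its level ranged from 0 to 0.471 TPM with a median of 0.0581 TPM over the 11 tumors, and the highest value was that of 43825B. The groups did not overlap, but the lowest intra-CNS tumor and 43825B were separated by only 0.574 against 0.471 TPM (36 and 11 counts). The edgeR log2 fold change (intra-CNS minus outside) of Nkx2-2 was 4.59 with a standard error of 0.86, and 2.91 among tumors induced at E6 alone. In these bulk samples, fewer cells that express a gene and less RNA of it per cell cannot be told apart.

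Nkx6-2 (chr7:139579376-139582797, minus strand), which acts with Nkx6-1 in ventral progenitors and is also expressed in myelinating oligodendrocytes, was spread unevenly over the intra-CNS tumors. Its level was 26.3 TPM in 29048, 13.7 in 38594A, 2.73 in R26P87, 2.32 in R26P98 and 1.10 in 29050A. Outside the CNS it ranged from 0 to 0.730 TPM, with 0 counts in 6 of the 11 tumors. The groups did not overlap, and the 2 highest values were those of the youngest mice with intra-CNS tumors, 45 and 30 days old. Tumor 29048, with the highest Nkx6-2 level, was also the tumor with the high oligodendrocyte marker level given above, whereas 38594A had summed oligodendrocyte markers of 84.8 TPM, within the range of the tumors outside the CNS (43.2 to 149 TPM). The log2 fold change of Nkx6-2 was 5.34 (SE 1.18), with 4.45 without 29048 and 6.05 without 29941C.

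Nkx6-1 (chr5:101658139-101664996, minus strand), which is needed for motor neuron progenitors and for insulin-producing cells, was lower in the same 2 tumors. Its level was 36.7 TPM in R26P87, 6.74 in 29050A, 6.36 in R26P98, 3.23 in 38594A and 1.70 in 29048. Outside the CNS it ranged from 0 to 2.85 TPM with a median of 0.299 TPM, and the 3 highest tumors were 29941C (2.85 TPM), 43989C (1.96 TPM) and R26P123 (1.46 TPM). The groups overlapped in 1 tumor, since 29048 lay below 29941C and 43989C, and the other 4 intra-CNS tumors lay above all tumors outside the CNS. The log2 fold change of Nkx6-1 was 3.42 (SE 1.02), and 2.16 without R26P87.

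Nkx2-9 (chr12:56611389-56613284, minus strand), which is expressed beside the floor plate and overlaps Nkx2-2 in function, was the ventral gene that did not follow the location of the tumors. It was at 5.81 TPM in R26P87, 1.01 in 29048, 0.441 in R26P98, 0.321 in 38594A and 0.155 in 29050A. Outside the CNS, Nkx2-9 reached 7.18 TPM in 29941C, 1.59 TPM in 43825B and 1.41 TPM in 43998A, and had 0 counts in 3 of 11 tumors. The groups overlapped over nearly their whole range, and the highest value of all 16 tumors was outside the CNS. The log2 fold change was 0.01 (SE 1.29), with -1.64 without R26P87 and 1.22 without 29941C.

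The largest level and the widest gap of the 6 genes belonged to Nkx2-3 (chr19:43612325-43615892, plus strand). It was at 223 TPM in R26P87, 108 in 29050A, 65.1 in R26P98, 26.7 in 38594A and 5.43 in 29048. Outside the CNS, 9 of 11 tumors had 0 counts of Nkx2-3, and the other 2 had 7 counts (29941C, 0.0689 TPM) and 3 counts (R26P123, 0.101 TPM). The groups did not overlap, and the lowest intra-CNS tumor had 135 counts. The log2 fold change of 11.33 (SE 0.99) rests on 10 counts in all outside the CNS and 12191 counts in the intra-CNS tumors. It was 10.66 without R26P87 and 12.06 without 29941C.

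Nkx2-5 (chr17:26838664-26845009, minus strand), an early marker of the heart, was at or under the floor of 3 counts in 15 of 16 tumors. The exception was 29050A with 14 counts (0.358 TPM, exact Poisson 95% interval 0.196 to 0.601 TPM, which covers counting error only). The other intra-CNS tumors had 0 to 0.145 TPM and those outside the CNS 0 to 0.159 TPM, so that no difference was detectable at this depth. The log2 fold change was 0.54 (SE 0.94), and turned negative without 29050A (-0.44) and among tumors induced at E6 alone (-0.35).

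**Figure D1:**
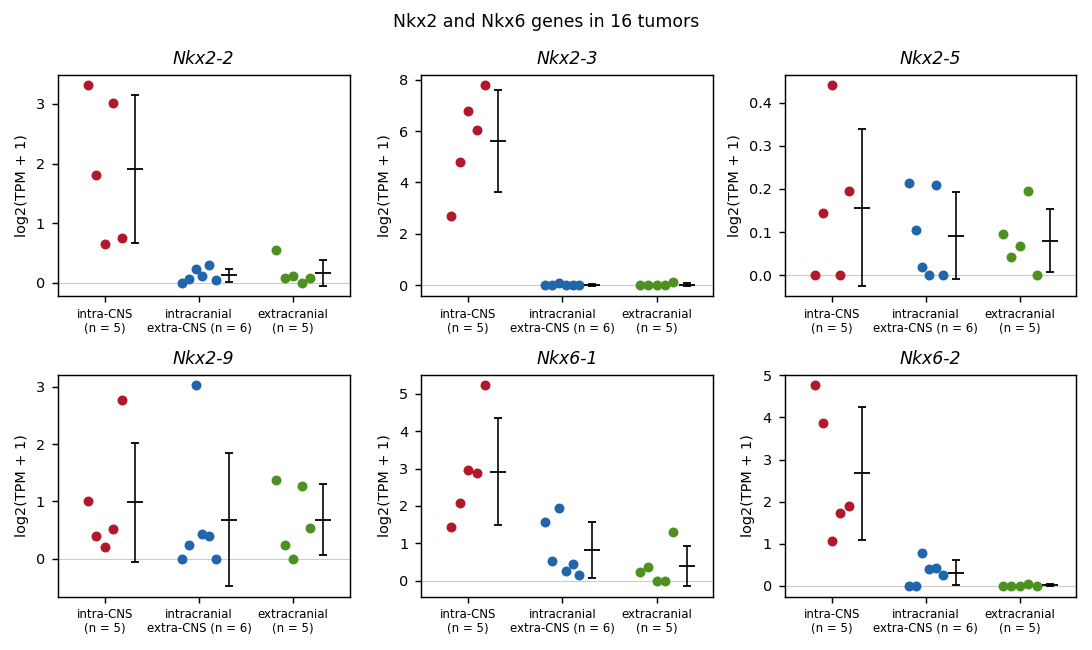
Level of each gene as log2(TPM + 1) in the 16 tumors by location. Points are tumors, bars beside them are the mean and SD of each group, and each panel has its own axis. Nkx2-2, Nkx2-3 and Nkx6-2 show no overlap between the intra-CNS tumors and the others, Nkx6-1 overlaps in 1 tumor, and Nkx2-5 and Nkx2-9 overlap widely.

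The edgeR threshold combined an adjusted p under 0.05 with a log2 fold change beyond 1 in either direction. Over all genes tested, 12.9% passed it with a higher level in intra-CNS tumors and 13.1% with a lower level. Of the 6 genes, 4 were past this threshold (Nkx2-2, Nkx2-3, Nkx6-1 and Nkx6-2), all with a higher level in intra-CNS tumors. Groups without overlap were found for 3 of the 6 genes, and 12.9% of all genes had a TPM value in every intra-CNS tumor above that of every other tumor. Since the members were chosen from this contrast, nothing is read from these counts.

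Within the intra-CNS tumors, the members divided the tumors in different ways. Compared per length, the sum of the 6 genes was 43.5 TPM in 29048, 46.6 in 38594A, 81.3 in R26P98, 117 in 29050A and 269 in R26P87. In 29048, Nkx6-2 made up 60.5% of this sum, Nkx2-2 20.7% and Nkx2-3 12.5%. In the other 4 intra-CNS tumors, Nkx2-3 led, with a share from 57.4% in 38594A to 92.4% in 29050A. The second gene was Nkx6-2 in 38594A (29.4%), Nkx2-2 in R26P98 (8.74%) and Nkx6-1 in 29050A (5.75%) and R26P87 (13.6%). Outside the CNS, the sum ranged from 0.137 to 2.30 TPM in 10 tumors and was higher only in 29941C, and it was led by Nkx2-9 or Nkx6-1 in 9 of 11 tumors.

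Nkx2-3 and Nkx6-1 placed the 5 intra-CNS tumors in the same order, in all 10 pairs of tumors, on the TPM scale and as CPM with TMM library sizes. In 1 of these pairs the order of Nkx6-1 lay within counting error, since 29050A (6.74 TPM, interval 6.01 to 7.53) and R26P98 (6.36 TPM, interval 5.19 to 7.71) overlapped. Nkx2-3 and Nkx6-2 gave the opposite order in 8 of the 10 pairs, and so did Nkx2-3 and Nkx2-2. Nkx2-2 and Nkx6-2 gave the same order in 8 of the 10 pairs. For Nkx2-2, the intervals of 29050A (0.402 to 0.794 TPM) and R26P87 (0.379 to 1.12 TPM) overlapped. Those of 29048 (7.96 to 10.2 TPM) and R26P98 (6.04 to 8.31 TPM) did so too, so that both ends of its order lay within counting error. For Nkx6-2, R26P87 (2 to 3.63 TPM) and R26P98 (1.66 to 3.17 TPM) overlapped. With 5 tumors these orders are a description. The ends were R26P87 and 29048 for Nkx2-3 and Nkx6-1, and 29048 and 29050A for Nkx2-2 and Nkx6-2.

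**Figure D2:**
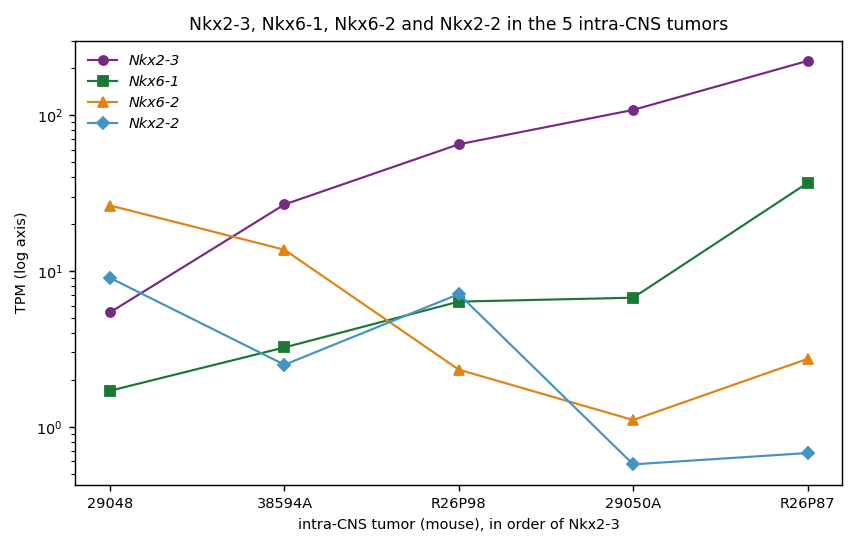
TPM (log axis) of Nkx2-3, Nkx6-1, Nkx6-2 and Nkx2-2 in the 5 intra-CNS tumors, ordered by Nkx2-3. Each point is 1 tumor and the lines only join the points of a gene. Nkx2-3 rises from 5.43 to 223 TPM and Nkx6-1 from 1.70 to 36.7 TPM along this order, whereas Nkx6-2 is highest in 29048 and 38594A, the 2 tumors of lowest Nkx2-3.

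The upstream sequences of Nkx2-3 and Nkx6-2 are shown because these 2 genes marked opposite ends of the intra-CNS tumors. Each is the run of 250 bases before the transcription start (RefSeq, GRCm38.p6), written in the direction of transcription. Capitals mark matches on either strand to CCACCCA (a core of Gli sites), AAGTG (a core of NK2 sites), ATTA (a homeodomain core) and CCAAT.
Nkx2-3 (chr19:43612075-43612324, plus strand): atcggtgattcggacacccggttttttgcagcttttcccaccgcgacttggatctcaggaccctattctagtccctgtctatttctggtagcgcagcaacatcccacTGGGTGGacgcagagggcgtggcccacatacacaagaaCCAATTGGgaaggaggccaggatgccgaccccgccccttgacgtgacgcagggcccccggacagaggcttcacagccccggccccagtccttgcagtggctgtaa
Nkx6-2 (chr7:139582798-139583047, minus strand): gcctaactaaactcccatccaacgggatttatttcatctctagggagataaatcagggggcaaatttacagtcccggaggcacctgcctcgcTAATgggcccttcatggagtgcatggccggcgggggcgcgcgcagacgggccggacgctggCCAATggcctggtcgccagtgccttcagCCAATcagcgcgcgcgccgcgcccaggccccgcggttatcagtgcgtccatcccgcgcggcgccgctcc
Upstream of Nkx2-3 there were 1 match to CCACCCA and 2 to CCAAT, which overlap each other, and none to AAGTG or ATTA. Upstream of Nkx6-2 there were 2 matches to CCAAT and 1 to ATTA, and none to CCACCCA or AAGTG. Among 32851 windows of this length, 8.11% held CCACCCA, 40.7% AAGTG, 54.9% ATTA and 33.8% CCAAT. A match is a description of the letters and not a site of binding, and 3 of the 4 motifs are frequent.

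The genes around the members did not share their pattern in general. Got1 and Slc25a28, on either side of Nkx2-3, did not pass the threshold, with log2 fold changes of 0.33 (adjusted p = 0.612) and -0.35 (adjusted p = 0.415) in edgeR's quasi-likelihood test. Both were expressed in all tumors, Got1 at 35.6 TPM or more and Slc25a28 at 25.1 TPM or more. Next to Nkx6-2, Cfap46 rose in the intra-CNS tumors by 3.00 on the log2 scale (edgeR, adjusted p = 0.0399), whereas Pwwp2b fell by 2.65 (adjusted p = 0.00175). Inpp5a, which overlaps the end of Nkx6-2 by 277 bases on the other strand, did not pass (-0.19, adjusted p = 0.67). Nkx6-2 had 0 counts in 6 tumors in which Inpp5a was at 19.7 TPM or more.

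Nkx2-2 overlaps a pair of antisense genes. Nkx2-2os, of which 278 exonic bases are shared with Nkx2-2, was at 0 to 0.489 TPM in intra-CNS tumors and 0 to 0.217 TPM outside, with a log2 fold change of 2.05 that did not pass the threshold (edgeR, adjusted p = 0.153). The transcript 6430503K07Rik lies within the Nkx2-2 locus on the opposite strand (chr2:147187424-147188407) and passed, with a log2 fold change of 5.70 (SE 0.77, edgeR, adjusted p = 6.19e-05). It was at 4.62 TPM in 29048 (30 counts), 1.61 TPM in R26P98 (8 counts) and 0.283 to 0.402 TPM in the other 3 intra-CNS tumors (2 to 4 counts), and a single count was found in the 11 tumors outside the CNS. Its 2 highest tumors were those of highest Nkx2-2. The library kit keeps the strand, but the setting used in counting is not given in the sources used here, so that the reads of Nkx2-2 and of these genes cannot be told apart with certainty. The flanking genes Nkx2-4 (log2 fold change -1.80, adjusted p = 0.259) and AI646519 (0.26, adjusted p = 0.899) did not pass in the edgeR fit.

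Around the other members, C87198, a long non-coding RNA on 1 side of Nkx2-9, rose by 3.42 on the log2 scale (edgeR, adjusted p = 0.0021), with 0 to 0.653 TPM in intra-CNS tumors and a single count (0.0337 TPM) outside the CNS. Pax9, on the other side of Nkx2-9 and a regulator of pharyngeal pouches and teeth, did not pass (log2 fold change -0.80, adjusted p = 0.753, edgeR), with 0.0540 to 106 TPM in intra-CNS tumors and 0 to 108 TPM outside. Gpat3, the neighbor of Nkx6-1 at lower coordinates, fell by 2.95 on the log2 scale (edgeR, adjusted p = 0.000567), and Cds1 on its other side did not pass (-0.47, adjusted p = 0.722). Bnip1 and Kifc5b beside Nkx2-5 did not pass (0.04, adjusted p = 0.882, and 0.07, adjusted p = 0.905, edgeR). For Bnip1 the scale mattered, since its TPM values did not overlap (36.1 to 52.3 in intra-CNS tumors and 19.4 to 34.3 outside), and over all genes the median difference moved from -0.15 in edgeR to 0.20 on log2(TPM + 1).

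Among 7 other NK genes, 2 passed the threshold with a higher level in intra-CNS tumors and none with a lower level. Among tumors induced at E6 alone, none passed with a higher level and 1 with a lower level (Nkx2-4). Nkx2-1, a regulator of the ventral forebrain, thyroid and lung, was at 22.8 TPM in 38594A, 11.8 in R26P98, 11.3 in 29048, 8.17 in R26P87 and 0.620 in 29050A. Outside the CNS it reached 0.560 TPM in R26P170 and at most 0.0740 TPM in the extracranial tumors. The groups did not overlap, and the log2 fold change of Nkx2-1 was 6.82 (SE 1.15, edgeR, adjusted p = 0.000344), and 8.63 without R26P170. Tumor 29050A was lowest for Nkx2-1, Nkx2-2 and Nkx6-2 alike, and second highest for Nkx2-3. For Nkx2-2 it was within counting error of R26P87.

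Nkx6-3 also passed in edgeR (log2 fold change 2.27, adjusted p = 0.0455), but with only 1 to 4 counts in the intra-CNS tumors and 0 to 7 outside. It passed in 4 of 25 alternatives (adjusted p 0.0024 to 0.667). Nkx3-2, a skeletal and stomach mesenchyme factor, did not pass (-1.19, adjusted p = 0.503, edgeR) and was highest in 29941C (10.5 TPM), the tumor that also had the highest Nkx2-9, Nkx6-1 and Nkx6-2 levels outside the CNS. Nkx1-1 (log2 fold change -2.34, adjusted p = 0.19), Nkx1-2 (0.23, adjusted p = 0.757) and Nkx2-4 did not pass in edgeR, and Nkx2-6 had 0 counts in all tumors.

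**Figure D3:**
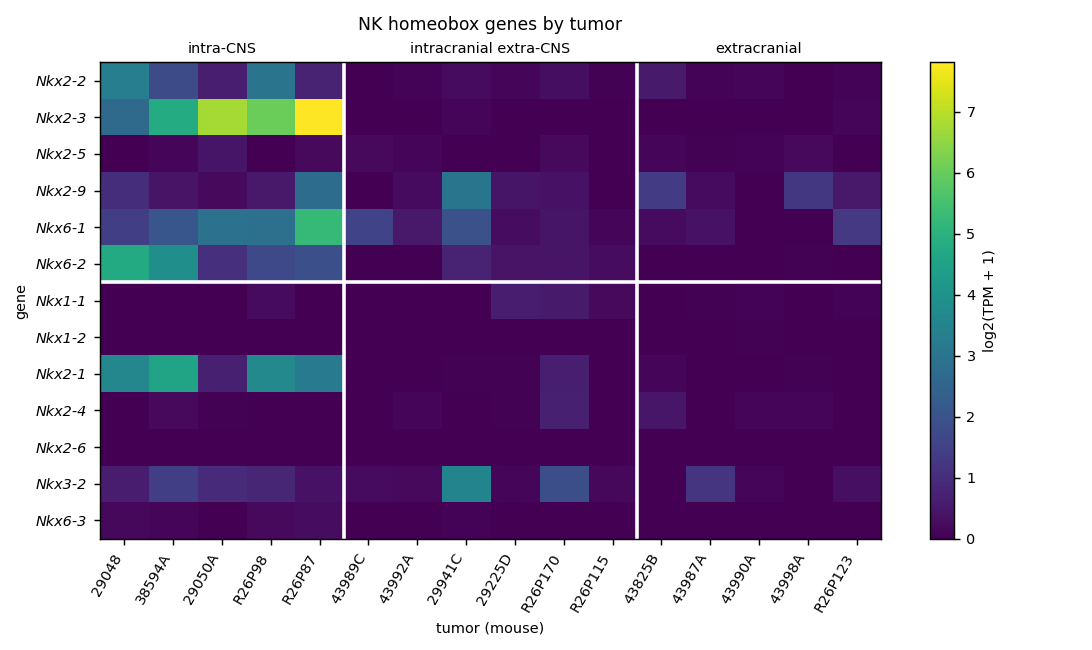
Level of 13 NK genes as log2(TPM + 1) (color) in the 16 tumors (columns, named by mouse and grouped by location). The 6 Nkx genes described are above the horizontal line and 7 other NK genes below it. Nkx2-3 and Nkx2-1 are seen in the intra-CNS tumors, and 29941C stands out outside the CNS for Nkx2-9, Nkx6-1 and Nkx3-2.

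Genes that work with the ventral members were higher in the intra-CNS tumors in part. Of 10 floor plate genes, 5 rose and none fell past the threshold (median log2 fold change 2.06, against -0.15 over all genes tested). The other 5 did not pass and all had log2 fold changes below 0, from -3.86 (Corin) to -0.22 (Spon1). No gene lay near the median, which was -0.20 with the filterByExpr filter of edgeR. Shh, the ligand that patterns the ventral neural tube, was at 2.72 to 81.9 TPM in intra-CNS tumors and at most 0.725 TPM outside (log2 fold change 6.89, edgeR, adjusted p = 9.56e-05). Ferd3l rose by 8.13 and Foxa2, which marks the floor plate itself, by 5.57 on the log2 scale (edgeR, adjusted p = 9e-05 and 0.000977). In intra-CNS tumors Ferd3l ranged from 0 to 50.2 TPM and Foxa2 from 0.681 to 57.4 TPM. For each of them, only 4 intra-CNS tumors lay above all tumors outside the CNS. All 3 passed on leaving out any single tumor, with log2 fold changes of 5.96 for Shh and 6.40 for Ferd3l without R26P98 and of 3.68 for Foxa2 without 38594A. Both class II partners of the members, Olig1 and Olig2, rose, by 5.81 and 5.20 on the log2 scale (edgeR, adjusted p = 0.00336 and 0.00161). Without 29048 both still passed, at 3.48 and 4.11, and DESeq2 gave no p for either gene, as it does where a single count lies far from the others.

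The class I factors, which the class II members repress in the neural tube, were not lower. Of 7, 3 rose and none fell (median log2 fold change 2.20). Whether the members repress them in these tumors was not tested, and bulk levels do not show which cells express which gene. Dbx1, which marks progenitors dorsal to the Nkx6-1 domain, was at 4.21 to 54.6 TPM in intra-CNS tumors against at most 2.84 TPM outside (log2 fold change 5.51, edgeR, adjusted p = 0.00489), and its log2 fold change was 7.60 without 43987A. Irx3 and Irx5 rose by 2.20 and 2.04 (edgeR, adjusted p = 0.011 and 0.0279), and Irx5 did not pass in 2 of the 16 fits that left out a tumor. Of 6 Groucho family co-repressors, Tle4 rose by 1.62, with 80.2 TPM ± 23.6 (SD, n = 5) against 17.9 TPM ± 6.41 (SD, n = 11) (edgeR, adjusted p = 0.000239). Tle6 fell by 3.13 on the log2 scale (adjusted p = 0.00393), and the other 4 did not pass (median of the 6 genes, 0.32).

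Genes of neurons that form from the ventral domains of these members passed in small numbers and in both directions. Of 12 V3 and motor neuron factors, 3 rose and 1 fell (median -0.25), and of 7 serotonergic genes 1 rose and 2 fell (median 0.12), where 12.9% of all genes tested passed with a higher level and 13.1% with a lower level. Uncx rose by 4.68, Chat by 4.39 and Sim1, which marks V3 interneurons, by 3.75 on the log2 scale (edgeR, adjusted p = 0.00071, 0.00593 and 0.0484), whereas Tbx20 fell by 7.23 (adjusted p = 0.0245), all at low levels in intra-CNS tumors (at most 9.65 TPM). In 12 of the 16 fits that left out a tumor, fewer than 3 genes of this list rose. Without 29048, 1 gene rose and 1 fell, and none fell without 29050A, R26P98 or R26P87. Among the serotonergic genes, Slc18a2, the vesicular monoamine transporter, rose by 6.48 (edgeR, adjusted p = 5.26e-05), whereas Slc6a4 fell by 4.90 and Lmx1b fell by 2.59 (adjusted p = 0.0257 and 0.036). Without 29048 or without 29050A, 1 serotonergic gene rose and none fell.

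The oligodendrocyte lists turned on a single tumor. Of 6 oligodendrocyte precursor genes, Gpr17, Bcas1 and Sox8 rose by 6.77, 3.94 and 2.68 on the log2 scale and Pdgfra fell by 2.5 (edgeR, adjusted p = 0.00135, 0.0136, 0.0174 and 0.0205). Of 10 myelin genes, 7 rose and none fell (median log2 fold change 3.77), among them Mobp by 6.25, Mog by 6.08 and Ermn by 4.53 (adjusted p = 0.0162, 0.0101 and 0.0168). Without 29048, none of the 10 myelin genes passed in edgeR, none had an unadjusted p under 0.05, and their median was -0.22. DESeq2 gave no p for any of the 10. For the precursor genes, 1 rose and none fell without this tumor, and 3 rose and none fell without 38594A. In the other 4 intra-CNS tumors, summed oligodendrocyte markers were 54.0 to 190 TPM against 43.2 to 149 TPM outside the CNS, and the part of such cells in the levels of Nkx2-2 and Nkx6-2 was not tested.

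The programs known for Nkx2-3 and Nkx2-5 outside the nervous system did not rise together. Of 10 foregut, pharynx and spleen genes, Wt1 rose by 4.72 and Foxf1, a factor of gut mesenchyme, fell by 4.67 on the log2 scale (edgeR, adjusted p = 0.0117 and 0.0256), with a median of -1.31 over the list. Without R26P98 neither passed, and Foxf1 did not pass without 38594A or without 29050A. Of 12 cardiac genes, Hand2 rose by 3.94, at 84.1 to 439 TPM in intra-CNS tumors (edgeR, adjusted p = 0.0302). Hand2 is also a factor of sympathetic neurons and limb, and no cardiac gene rose without 29050A or without R26P98. Nppb fell by 8.66 and Gata6 fell by 4.07 (adjusted p = 0.00787 and 0.00961), and Gata4 (adjusted p = 0.0273) had 0 counts in all 5 intra-CNS tumors and up to 150.0 TPM outside. The cardiac list had a median of -1.56, or -1.14 with Gata4 and Hand1, which had no count in intra-CNS tumors, set to the bound that the floor of 3 counts per library allows.

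Of 12 pancreatic endocrine genes tested, 7 rose and 1 fell (median log2 fold change 3.59, or 0.51 with Pdx1 and Pax4, which had no count outside the CNS, set to their bound). Neurod1 rose by 6.33, Insm1 by 6.16 and Mafa by 4.85 (edgeR, adjusted p = 9.38e-05, 3.58e-05 and 0.00044). Neurod1 and Insm1 are also general factors of neuronal differentiation. Pdx1 reached 0.386 TPM in the intra-CNS tumors (edgeR, adjusted p = 0.0147). The hormone genes were picked for mention after their values were seen. Sst, which is also made by interneurons, rose by 3.92 (edgeR, adjusted p = 0.0116), and 4 of 5 intra-CNS tumors lay above all others. Ins2, Gcg and Iapp did not pass in edgeR (adjusted p = 0.254, 0.118 and 0.236), and Ins1 had 0 counts in all tumors.

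**Figure D4:**
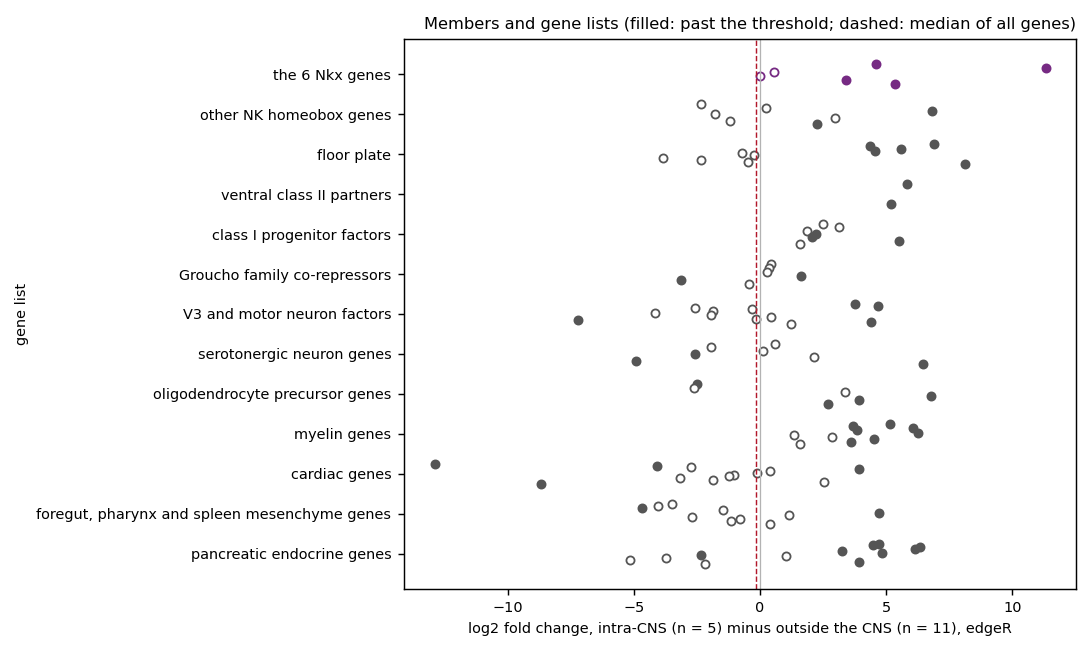
edgeR log2 fold change between intra-CNS tumors (n = 5) and tumors outside the CNS (n = 11) for the 6 Nkx genes and for each gene list (rows). Each point is 1 gene, filled points are past the threshold, and the dashed line is the median of all genes tested (-0.15); the positions of Gata4, Hand1, Pdx1 and Pax4, without counts in 1 group, depend on the fit and are no measured fold. Floor plate, class II partner and myelin genes show filled points on the right, and the 7 filled points of the myelin list were lost without tumor 29048.

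The genes of most similar profile were found by the mean absolute difference over 16 tumors of log2(TPM + 1), each gene being divided by its maximum, over the 14800 genes that reached a mean of 50 counts. For Nkx2-3 these were Gsx1 (difference 0.0353), 4922502B01Rik (0.0375) and Crb1 (0.0394). Gsx1, a homeobox gene of the ganglionic eminence and hypothalamus, was at 858 TPM in R26P87 and 11.3 TPM in 29048, the tumors at both ends of the Nkx2-3 order. For Nkx6-1 they were T (0.0806), the Brachyury gene of the notochord, Draxin (0.0885) and Gm15816 (0.0928), and T was at 172 TPM in R26P87, 19.6 in 29050A, 16.2 in R26P98, 5.35 in 38594A and 1.33 in 29048. This is the same order of tumors as for Nkx6-1.

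For Nkx6-2 the genes of most similar profile were Mdga2 (0.0384), B3gat1 (0.0501) and Cntn6 (0.0508), which encode cell surface proteins or a glycan enzyme of neurons, and for Nkx2-2 Cdh20 (0.0654), Slc6a11 (0.0681) and Grid2ip (0.0724). All of them were highest in 29048. For Nkx2-5 they were Cbln3 (0.171), Gabra6 (0.184) and E330013P04Rik (0.2). Cbln3 and Gabra6, both known from cerebellar granule neurons, were at 20.7 and 14.3 TPM in 29050A and at most 1.77 and 0.102 TPM in the other intra-CNS tumors. For Nkx2-9 they were Agtr1a (0.103), Hoxa11 (0.126) and Hoxa11os (0.134). The median difference over all genes was 0.532 to 0.597, depending on the member. These likenesses rest on a few tumors with high values and are given without a test.

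The tumors outside the CNS allow comparisons that did not enter the choice of the members. Between the 6 intracranial extra-CNS and the 5 extracranial tumors, none of the 6 genes differed in a two-sided exact permutation test of log2(TPM + 1) (p = 0.0909 to 1, not adjusted), while 6.72% of all genes had p under 0.05. Nkx6-2 had the lowest p of the members. It was at 0.730 TPM in 29941C, 0.333 in R26P170, 0.325 in 29225D, 0.191 in R26P115 and 0 in 43989C and 43992A, whereas 4 of 5 extracranial tumors had 0 counts and the fifth had 1. The mean difference of Nkx6-2 was 0.30 on the log2(TPM + 1) scale (exact permutation p = 0.0909; the smallest p that 6 against 5 tumors allow is 0.00433).

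In edgeR's fit of this contrast, Nkx6-2 had an unadjusted p of 0.00668 and an adjusted p of 0.346. An unadjusted p under 0.05 was found for 12.3% of all genes, and 0.00470% passed the threshold. No member passed by edgeR, DESeq2 or limma, and Nkx6-2 alone had an unadjusted p under 0.05 in each of them. Nkx6-1 was at 0.985 TPM ± 1.14 (SD, n = 6) in the intracranial and 0.388 TPM ± 0.615 (SD, n = 5) in the extracranial tumors, a difference of 0.43 on the log2(TPM + 1) scale (exact permutation p = 0.268). The study lists the nose tumor of this comparison as intracranial extra-CNS, against its label. With that grouping, the difference was 0.22 for Nkx6-1 (exact permutation p = 0.552) and 0.25 for Nkx6-2 (p = 0.212). Summed oligodendrocyte markers were 50.3 to 149 TPM in the intracranial and 43.2 to 138 TPM in the extracranial tumors, and their part in the Nkx6-2 values was not tested. None of the 99 genes of the lists passed in edgeR between these sites, 28 had an unadjusted p under 0.05, and DESeq2 called 8 and limma 0. A p that misses the threshold does not show that the sites are alike.

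By time of induction, Nkx2-2 was the member that differed outside the CNS. The mice induced at E6 or E7 were also the oldest (147 to 210 days, against 52 to 123 days), so that time of induction and age cannot be told apart in this comparison. The 3 tumors induced at E6 or E7 had 0.471 (43825B), 0.227 (R26P170) and 0.0894 TPM (29225D), or 11, 7 and 6 counts, and the 8 induced at E8 had 0 to 0.170 TPM. The groups overlapped, since 29225D lay within the range of the E8 tumors. The difference was 0.25 on the log2(TPM + 1) scale (exact permutation p = 0.0242, not adjusted over the 6 genes tested, smallest possible p 0.0121), and 2.41% of all genes had p under 0.05 in this comparison. It was 0.13 without 43825B (exact permutation p = 0.0889) and 0.26 without R26P170 (p = 0.0889, exact). The other 5 genes did not differ (p = 0.461 to 1, exact permutation test).

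**Figure D5:**
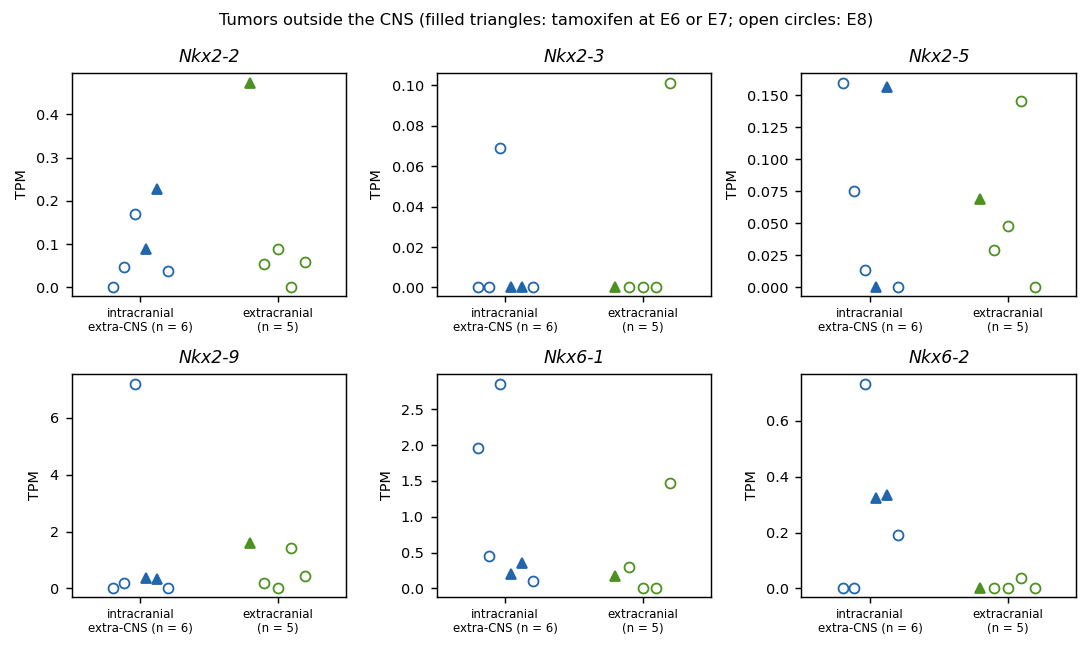
TPM of the 6 genes in the 11 tumors outside the CNS by location, with filled triangles for tamoxifen at E6 or E7 and open circles for E8. Each panel has its own axis. Nkx6-2 is seen in 4 of 6 intracranial and at 1 count in 1 of 5 extracranial tumors, and the 2 highest Nkx2-2 values are tumors induced at E6.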

How the data were processed

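RNA-seq was done on polyadenylated RNA of 16 mouse RT, in paired-end libraries that keep the strand. Mapping to mm10 and counting per gene were done by the authors with STAR 2.5.3a. They deposited raw counts, not normalized, and TPM values, which sum to 1000000 in each tumor. Trim Galore, FastQC and Picard are also named in the submitters' processing notes. The gene annotation and gene lengths are not given in the sources used here.

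Locations and times of tamoxifen were taken from the sample labels. Mouse 43990A, whose label gives an extracranial site (nose) but which the study lists as intracranial extra-CNS, was grouped by its label and also tried the other way. The members and the gene lists were chosen with earlier results of these data known. All genes with at least 1 count entered the tests of edgeR 4.0.16 (TMM, glmQLFit and glmQLFTest, R 4.3.3) between the 5 intra-CNS tumors and the 11 others (21854 genes), and between the 6 intracranial extra-CNS and the 5 extracranial tumors (21261 genes, fitted alone). P-values were adjusted after Benjamini-Hochberg over all genes tested. Code for the fit was tested on simulated data. Members were compared outside the CNS with two-sided exact permutation tests of log2(TPM + 1). Named genes were the members, the other NK genes, the genes next to each member and those overlapping it (the overlapping genes were added after their values were seen), up to 4 genes past the threshold per list (the largest changes) and the 3 genes of most similar profile per member. Sequences and positions came from GENCODE and RefSeq, and all 6 members were matched in both. No proteins are shown, and some genes and 1 sequence chosen by these rules are not reported here. Alternatives were DESeq2 1.42.0, limma 3.58.1 on log2(TPM + 1), DESeq2 size factors, filterByExpr, calls by adjusted p alone, a covariate for the naming scheme of the mice, subsets of tumors, a pseudocount of 0.1, log2(CPM + 1) and the omission of each tumor. A floor of 3 counts was used, and floors and intervals cover counting error only.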

Additional observations from a re-analysis of the deposited data

Results flagged for a closer look

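Samples that stood apart in their group (Dixon's test at 95% on log2(TPM + 1), groups of 5 or 6 tumors) were found in 12 of 60 groups examined. All 12 were the highest tumor of the group. The test assumes normal values, whereas several groups held zeros and low counts. Groups in which a gene had at most 3 counts were left out. The number found is therefore not set against a chance rate. Tumor 29941C stood apart among the intracranial extra-CNS tumors for Nkx2-9 (3.03), Nkx2-3 (0.0961) and Nkx6-3 (0.0909), the last 2 at 7 counts each. Tumor R26P170 stood apart in the same group for Nkx2-1 (0.642) and Nkx2-4 (0.674). Among the extracranial tumors, 43825B stood apart for Nkx2-2 (0.557), its antisense gene Nkx2-2os (0.284), Nkx2-4 (0.479) and the summed macrophage markers (12.7), and 43987A for Nkx3-2 (1.17). Nkx2-2, Nkx2-2os and Nkx2-4 are neighbors on chromosome 2, and in 43825B they rest on 11, 9 and 4 counts. Among the intra-CNS tumors, 29048 stood apart for the summed oligodendrocyte markers (12.8). Tumor 43989C stood apart for the summed cardiac muscle markers (5.14), with Nkx2-5 at 2 counts. This sum of 34.2 TPM was nearly all Tnni3 (33.6 TPM), and the extracranial tumor 43990A had a higher sum (73.7 TPM).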

How the results depend on the processing

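Between intra-CNS tumors and the others, 5689 genes passed, 2829 higher and 2860 lower, and 3533 among tumors induced at E6 alone (1315 higher and 2218 lower). None passed with the R26P mice alone, where edgeR gave 3514 genes at an unadjusted p under 0.05. With limma on log2(TPM + 1), 4082 were higher and 1324 lower, and the median of all genes moved from -0.15 to 0.20. The log2 differences of Nkx2-2, Nkx2-3, Nkx6-1 and Nkx6-2 stayed above 0 under all alternatives. Of 26 alternatives, Nkx2-3 was past the threshold in 25, Nkx2-2 and Nkx6-2 in 24 and Nkx6-1 in 20. As the members were chosen with this contrast known, these signs and counts are a description and give no support. Limma's differences on log2(TPM + 1), a scale that understates changes from low levels, ranged from 1.76 (Nkx2-2) to 5.60 (Nkx2-3). Among the fits to counts, the lowest log2 fold changes were 10.66 for Nkx2-3 (without R26P87), 2.91 for Nkx2-2 (E6 alone), 3.22 for Nkx6-2 (R26P mice alone) and 1.79 for Nkx6-1 (numbered mice alone). In tumors induced at E6 alone, which leaves 2 tumors outside the CNS, 2 floor plate genes rose and 1 fell, and Olig1, Olig2, Nkx2-1, Nkx2-2, Nkx6-1 and Nkx6-2 did not pass. In this subset the log2 fold change was 4.79 for Nkx6-1 and 2.91 for Nkx2-2, and the median of Olig1 and Olig2 was 5.06. With limma, none of the V3 and motor neuron or foregut genes passed, and 1 of 10 myelin genes.

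Between the sites outside the CNS, 1 gene passed (Ttc39aos1, named after its values were seen), against 490 with DESeq2 and 0 to 3 when single tumors were left out. No member had an exact p under 0.05, and 1 (Nkx6-2, p = 0.0476) without 43989C or without 43992A, so that 0 to 1 passed on leaving out tumors. By time of induction, 1 member passed, 0 to 1 on leaving out single tumors, and 0 in numbered mice alone, where 2 against 6 tumors allow no exact p below 0.0714 (Nkx2-2, difference 0.26, exact p = 0.143).

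Differences that were not past the threshold changed sign for Nkx2-9 with a pseudocount of 0.1 (-0.40) and with 43990A as intracranial (-0.27), for Nkx2-3 (0.024) and Nkx2-5 (-0.016) in numbered mice alone and for Nkx2-2 in tumors induced at E8 alone (0.016). By time of induction, Nkx2-9 changed sign on log2(CPM + 1) (-0.0015) and Nkx2-5 in numbered mice alone (-0.059). Leaving out single tumors gave ranges between sites of -0.083 to 0.057 for Nkx2-2, -0.028 to 0.016 for Nkx2-3, -0.014 to 0.040 for Nkx2-5 and -0.47 to 0.17 for Nkx2-9, and by time of -0.032 to 0.072 for Nkx2-5 and -0.25 to 0.41 for Nkx2-9. No paired analysis was possible because no mouse appears in more than 1 group and replicate numbers only follow the order of the samples.

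The depth limits Nkx2-5, at 3 counts or fewer in 15 of 16 tumors, and outside the CNS Nkx2-3 (at most 7 counts), Nkx2-2 (at most 20) and Nkx6-2 (0 in 6 of 11 tumors, at most 67). Separate mice are biological replicates, but sequencing batches are not given, and location and subgroup cannot be told apart.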
